A study of Homo sapiens with 6 samples.

Results

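The genes described here are 6 matrix metalloproteinases (MMPs) and the 4 tissue inhibitors of metalloproteinases (TIMPs), measured before, during and at the end of a 5-day chemical treatment of human fibroblasts. They were taken by symbol from the deposited gene table: MMP1, MMP2, MMP3, MMP10, MMP11 and MMP14, with TIMP1, TIMP2, TIMP3 and TIMP4. All 10 symbols were found, each for 1 gene, among 60671 named genes, and all 10 passed the filter on low counts that left 16327 genes for testing. The levels were those of mRNA; protein and protease activity were not measured.

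MMPs are zinc-dependent endopeptidases that cleave collagens, other matrix proteins and many cell surface proteins. Most are secreted as inactive proenzymes and are activated by removal of a propeptide, by plasmin, by other MMPs or, for some members, by furin-like convertases inside the cell. TIMPs bind the active site of MMPs and block it, and TIMP3, which is held in the matrix, also inhibits some ADAM and ADAMTS proteases. Dermal fibroblasts are a main source of MMP1, MMP2 and MMP3 in skin, where these enzymes are known from wound repair and from inflammation.

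The libraries came from BJ cells, an established human fibroblast line from foreskin, labelled as wild type, with 2 libraries at each of day 0, day 2 and day 5. All cells were seeded on dishes coated with poly-D-lysine. Day 0 cells had grown in serum medium without forskolin, day 2 cells had been in neuronal induction medium with 10 µM forskolin, and day 5 cells had then been in neuronal maturation medium with 10 µM forskolin. Forskolin activates adenylyl cyclase and raises cAMP. Medium, drug and time changed together and cannot be told apart here. No forskolin-free cells of the later days were analysed here.

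Library totals ran from 17605858 to 27953926 expected counts, and 3 counts corresponded to 0.103 to 0.180 CPM (the count relative to library size, adjusted between libraries by TMM factors). Separate cultures are not named in the labels for the libraries of a day, so the spread behind each p-value is that between these libraries and may be technical only. In bulk RNA, fewer cells of a type and less RNA per cell cannot be told apart. The labels of day 2 and day 5 name induced neuron cells. All 10 fibroblast markers had counts in every library, and their summed level was 18680 to 19030 CPM on day 0, 15970 to 16180 CPM on day 2 and 29220 to 29630 CPM on day 5. The larger sum on day 5 came from COL1A2, COL3A1 and PDGFRA, while 6 of the 10 markers were called lower than on day 0 and 4 higher, with a median log2 fold change of -0.25. Among those lower were VIM (4847 to 1465 CPM), DCN (1043 to 202 CPM) and THY1 (426 to 104 CPM). Of all tested genes 35.8% were called higher and 34.1% lower in this comparison, with a median of 0.04. The 10 neuron markers summed to 243 to 252 CPM on day 0, 149 to 156 CPM on day 2 and 106 to 111 CPM on day 5, with STMN2 and ELAVL4 at 0 in all libraries. Most of that sum was TUBB3, which went from 226 to 140 and 87.4 CPM. MAP2 fell from 12.95 to 4.43 and 0.834 CPM (edgeR adjusted p = 1.4e-09 for day 5 against day 0). SNAP25 went the other way by day 5, from 5.88 to 18.3 CPM (edgeR adjusted p = 6.9e-09). SYN1 was higher on day 2 than on day 0 (2.98 against 1.69 CPM, edgeR adjusted p = 0.012). On day 5 SYN1 was at 1.54 CPM, under day 2 (edgeR adjusted p = 0.0078) and not called against day 0. Of 5 tested neuron markers, 1 was called higher and 2 lower on day 5 than on day 0. Of 5 epithelial markers the keratinocyte genes KRT5 and KRT14 had no counts, and the list summed to 14.4 to 32.1 CPM, nearly all of it KRT8. The 5 endothelial markers summed to 75.7 to 87.6 CPM on days 0 and 2 and to 137 to 138 CPM on day 5. KDR went from 4.15 to 8.20 and 61.7 CPM over the 3 days. TEK had 70.4, 78.0 and 74.4 CPM and was not called on day 5 against day 0. VWF had 1.62, 0.828 and 0.831 CPM and was not called in any comparison. PECAM1 had 0 to 9 counts a library and CDH5 had 1 count in all libraries together, and both were not tested. The summed level of 5 macrophage and leukocyte markers was 4.69 to 6.73 CPM on days 0 and 2 and 0.479 to 0.491 CPM on day 5. The part of these other transcripts in the results was not tested.

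RefSeq promoter sequences (GRCh38.p14) were available for 6 of the 10 genes: MMP10, MMP11, MMP14, TIMP1, TIMP3 and TIMP4. The 250 bases before the RefSeq start are shown, 5′ to 3′ on the gene's strand. They belong to the TIMP gene that rose most, the TIMP gene lower on day 5 and the stromelysin gene with an AP-1 motif. The windows lie at chr22:32801455-32801704 on the plus strand (TIMP3), chr3:12158913-12159162 on the minus strand (TIMP4) and chr11:102780629-102780878 on the minus strand (MMP10). GENCODE 29, used for the gene coordinates below, places some starts elsewhere. The TIMP4 window lies inside the GENCODE gene (12153051 to 12159351), and so does the MMP11 window. The TIMP1 window overlaps its GENCODE gene in part, and the TIMP3 window does so at its last bases. These windows are therefore upstream of the RefSeq start only. Capitals mark matches, on either strand, to the motifs searched, which are spelled out after the sequences.
TIMP3: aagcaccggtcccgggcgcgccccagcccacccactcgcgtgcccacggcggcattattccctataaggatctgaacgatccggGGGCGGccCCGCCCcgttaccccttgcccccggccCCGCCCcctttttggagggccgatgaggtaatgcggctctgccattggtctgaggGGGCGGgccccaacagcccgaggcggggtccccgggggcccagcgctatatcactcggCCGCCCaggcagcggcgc
TIMP4: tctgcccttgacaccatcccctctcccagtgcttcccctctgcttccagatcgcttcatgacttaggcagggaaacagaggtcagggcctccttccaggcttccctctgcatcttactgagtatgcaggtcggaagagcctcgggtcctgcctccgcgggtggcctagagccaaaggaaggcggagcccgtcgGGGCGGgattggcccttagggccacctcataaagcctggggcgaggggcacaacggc
MMP10: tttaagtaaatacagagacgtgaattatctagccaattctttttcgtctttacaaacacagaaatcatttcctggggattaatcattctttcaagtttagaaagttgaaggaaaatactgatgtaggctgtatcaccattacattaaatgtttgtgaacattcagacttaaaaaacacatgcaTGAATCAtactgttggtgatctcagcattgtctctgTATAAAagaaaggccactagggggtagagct

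The motifs were the AP-1 site TGANTCA, the cAMP response element TGACGTCA, its core TGACG, the GC box GGGCGG and the TATA box TATAAA. A match to the full cAMP response element also counts as a match to the core. Of 35116 RefSeq promoter windows of this length, 6.57% held the AP-1 letters, 1.65% the full cAMP response element, 21.2% the core, 42.6% a GC box and 10.7% the TATA letters. The TIMP3 window held 5 GC boxes, 26 CpG dinucleotides against a median of 11 over all windows, and 72.4% G and C against a median of 58.0%. The MMP10 window was rich in A and T, with 34.4% G and C and 2 CpG, an AP-1 match that starts 67 bases before the gene's start and a TATA match that starts 31 bases before it. The TIMP4 window held 1 GC box, MMP14 held 1, MMP11 held 3, and TIMP1 held 2 GC boxes and 1 match to the core. None of the 6 windows held the full cAMP response element, and MMP10 was the only one of the 6 with the AP-1 letters. These matches describe letters in a window and were not tested against the changes in level.

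The genes fell into separate courses. TIMP3 rose steeply by day 2 and stayed high. MMP1 and MMP3 rose on day 2 and were lower again on day 5. MMP2, MMP14, MMP11 and TIMP1 rose in both steps. TIMP2 moved little, and the low-level genes MMP10 and TIMP4 were called only in comparisons with day 5.

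**Figure D1:**
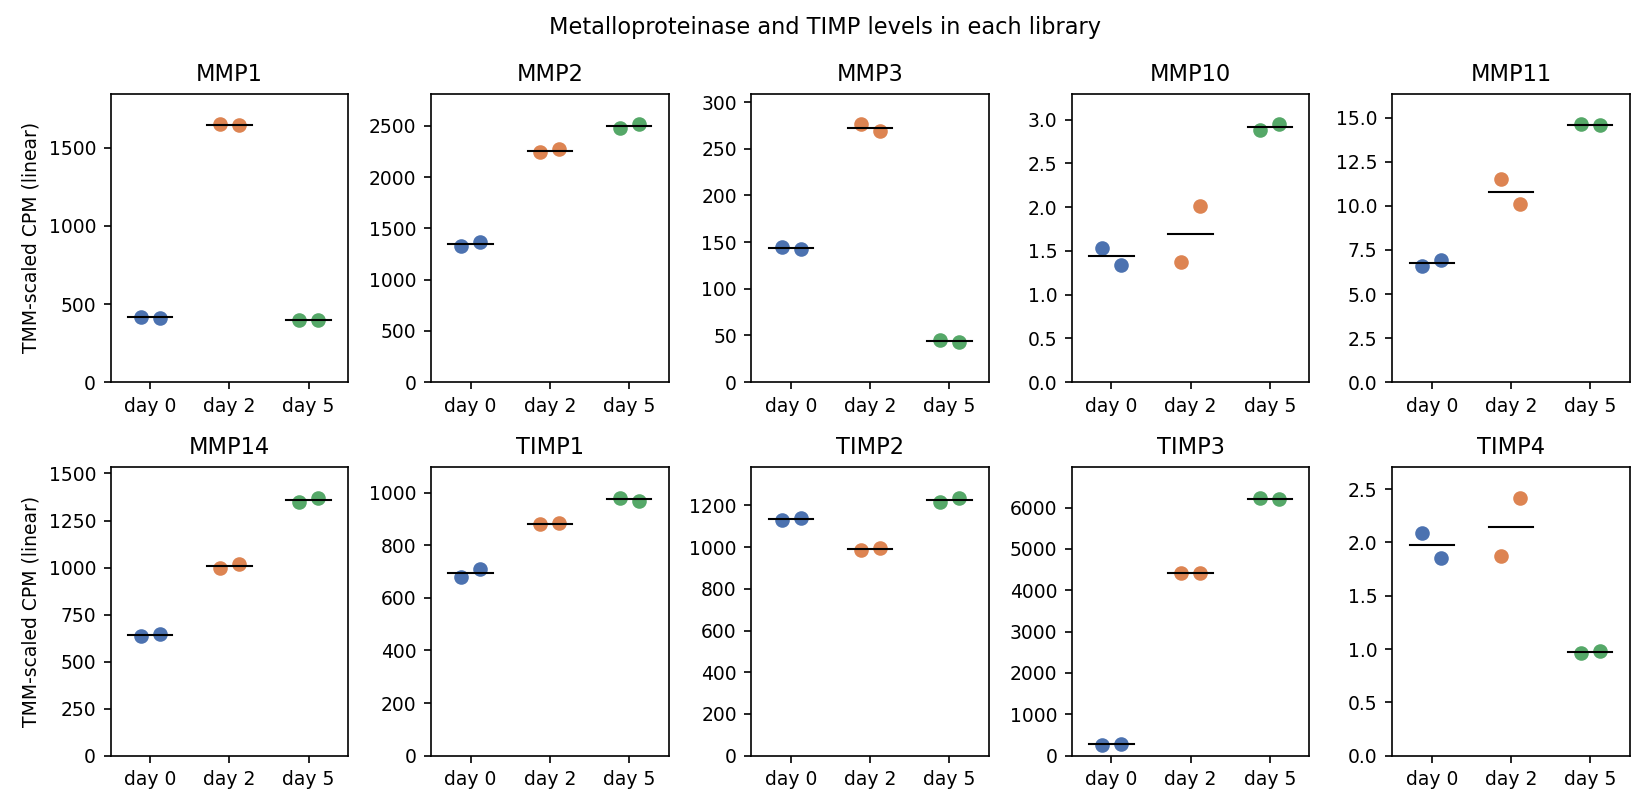
Level of each of the 10 genes in each library, in TMM-scaled CPM on a linear axis that starts at 0 and differs between panels. Points are the 2 libraries of a day and the line is their mean; MMP1 and MMP3 peak on day 2, whereas TIMP3 goes from 272 CPM on day 0 to 4422 and 6218 CPM.

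Day 2 was compared with day 0 for the change in the induction step. Of the 10 genes, 7 rose (MMP1, MMP2, MMP3, MMP11, MMP14, TIMP1 and TIMP3), 1 fell (TIMP2) and 2 were not called (MMP10 and TIMP4). Among all tested genes 33.4% were called higher and 33.4% lower in this comparison, so a gene being called was itself common. The median log2 fold change of the 10 genes was 0.66, against 0.00 over all genes. Tested for changes above 2-fold with glmTreat, 2 of the 10 genes, MMP1 and TIMP3, were called higher and 0 lower, against 6.99% and 5.54% of all genes.

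Day 5 was compared with day 0 for the whole protocol, and here 7 of the 10 genes were higher and 3 lower. MMP2, MMP10, MMP11, MMP14, TIMP1, TIMP2 and TIMP3 were called higher, and MMP1, MMP3 and TIMP4 lower. Of all genes 35.8% were called higher and 34.1% lower, and the median log2 fold change was 0.69 for the 10 genes and 0.04 for all. Above 2-fold, MMP14 and TIMP3 were called higher and MMP3 lower, against 9.74% and 10.3% of all genes. Both comparisons use the day 0 libraries, so their values are not independent of each other.

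Day 5 was compared with day 2 for the step into maturation medium. The same numbers resulted, 7 higher and 3 lower, with all 3 other TIMP genes higher and TIMP4 lower. MMP1 and MMP3 were the other genes that fell. Of all genes 32.1% were called higher and 33.7% lower, with a median log2 fold change of 0.01, against 0.23 for the 10 genes. Above 2-fold, 0 of the 10 genes were called higher and 2, MMP1 and MMP3, lower, against 6.41% and 7.96% of all genes. Under library totals without TMM factors the median gene shifted by -0.18 log2 on day 2 and -0.21 on day 5 against day 0, and the share of calls that were higher went from 50% to 38.1% and from 51.2% to 39%. The changes below are relative to TMM scaling.

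**Figure D2:**
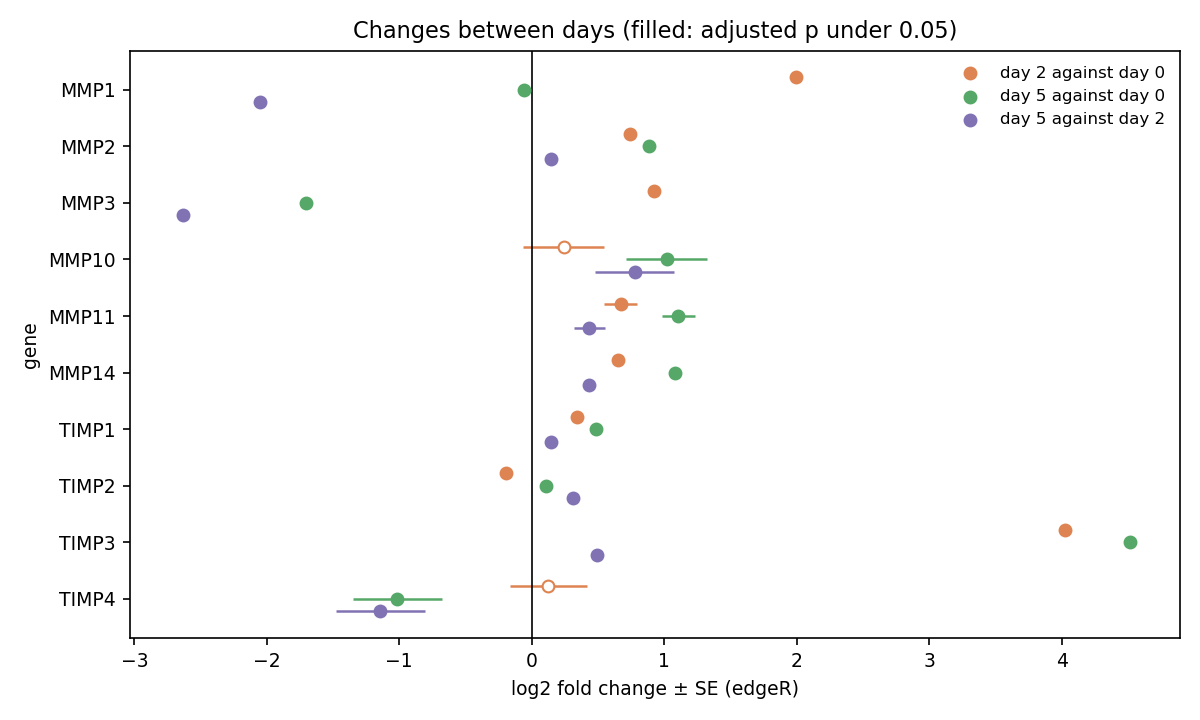
Log2 fold change with its standard error for each gene in the 3 comparisons, from edgeR; filled points had an adjusted p under 0.05. TIMP3 lies farthest to the right at 4.02 and 4.52 against day 0, and MMP3 farthest to the left at -2.63 for day 5 against day 2.

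MMP1, the interstitial collagenase, opens the triple helix of fibrillar collagens. It stood at 417 and 411 CPM on day 0, 1650 and 1648 CPM on day 2, and 399 and 395 CPM on day 5. Both day 2 libraries lay far above all others, and the day 5 libraries lay just under those of day 0. The rise on day 2 was 3.98-fold (log2 fold change 1.99 ± 0.02 SE, edgeR adjusted p = 2.6e-21), and the fall from day 2 to day 5 was 4.15-fold (log2 fold change -2.05 ± 0.02, edgeR adjusted p = 2.2e-21). Against day 0, day 5 was lower, with a log2 fold change of -0.06 and an SE of 0.02 (edgeR adjusted p = 0.016), a difference of -4.13%. That small call was lost with the filter at 1 CPM in 4 libraries (edgeR adjusted p = 0.109), on leaving out day 0 replicate 1 (0.0517) and on leaving out day 5 replicate 2 (0.0721), and its adjusted p ran from 6.1e-09 to 0.109 in the settings other than glmTreat.

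The stromelysins MMP3 and MMP10 degrade proteoglycans, laminin and other non-fibrillar matrix and can activate procollagenase. MMP3 was measured at 144 and 142 CPM on day 0, 276 and 269 CPM on day 2, and 45.4 and 42.7 CPM on day 5. The 3 days did not overlap: day 2 was highest and day 5 lowest. It rose 1.90-fold by day 2 (a change of 0.93 ± 0.03 log2, edgeR adjusted p = 1.2e-13) and then fell 6.19-fold to day 5 (log2 fold change -2.63 ± 0.04, edgeR adjusted p = 1.1e-18), so that it ended 3.26-fold under day 0 (log2 fold change -1.71 ± 0.04, edgeR adjusted p = 5.3e-16). MMP1 and MMP3 therefore shared their direction from day 0 to day 2 and from day 2 to day 5, while on day 5 MMP1 was near its starting level and MMP3 was under it. The log2 ratio of MMP1 to MMP3, both per kilobase, was 1.42 in both day 0 libraries, 2.47 and 2.5 on day 2, and 3.02 and 3.10 on day 5.

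MMP10 was scarce, with 39 expected counts in each library of day 0, 33 and 54 on day 2, and 48 and 54 on day 5. In CPM these were 1.54 and 1.34, 1.37 and 2.01, and 2.88 and 2.95. The day 2 libraries overlapped those of day 0, and both day 5 libraries were above the other 4. Day 5 was 2.03-fold above day 0 (a change of 1.02 ± 0.30 log2, edgeR adjusted p = 0.0068) and 1.71-fold above day 2 (log2 fold change 0.78 ± 0.30, edgeR adjusted p = 0.031), while day 2 against day 0 was not called (log2 fold change 0.24 ± 0.31, edgeR adjusted p = 0.51). The call against day 2 was lost with DESeq2 (adjusted p = 0.0833), with the replicate block (edgeR adjusted p = 0.0505) and without day 2 replicate 1 (0.214), day 5 replicate 1 (0.0768) or day 5 replicate 2 (0.0952). Its adjusted p ran from 0.0168 to 0.214 in the settings other than glmTreat. Against day 0 the call depended on day 0 replicate 2, without which it was lost (edgeR adjusted p = 0.0501, range 0.0033 to 0.0501).

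MMP2 (gelatinase A) cleaves denatured collagen and basement membrane collagen, and MMP14, a membrane-anchored MMP, activates pro-MMP2 at the cell surface in a complex with TIMP2. MMP2 stood at 1329 and 1371 CPM on day 0, 2246 and 2271 CPM on day 2, and 2482 and 2513 CPM on day 5. MMP14 followed the same order, with 636 and 646 CPM, then 996 and 1018 CPM, then 1348 and 1370 CPM. In both genes the days did not overlap, and each day lay above the one before.

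By day 2 the rise was 1.67-fold for MMP2 (a change of 0.74 ± 0.02 log2, edgeR adjusted p = 3.0e-16) and 1.57-fold for MMP14 (log2 fold change 0.65 ± 0.02, edgeR adjusted p = 1.1e-14). From day 2 to day 5 MMP2 rose by a further 10.6% (edgeR adjusted p = 9.4e-07) and MMP14 by 35.0% (edgeR adjusted p = 2.3e-12). Over the whole protocol MMP2 was 1.85-fold higher (edgeR adjusted p = 1.3e-17) and MMP14 2.12-fold higher (edgeR adjusted p = 5.0e-18). Their partner TIMP2 did not follow this course. The log2 ratio of MMP14 to TIMP2, per kilobase, was -0.85 and -0.84 on day 0, -0.01 and 0.02 on day 2, and 0.13 in both libraries on day 5. That of MMP2 to TIMP2 was 0.29 and 0.32 on day 0, 1.24 and 1.25 on day 2, and 1.08 in both on day 5.

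MMP11 is a stromelysin that furin activates before secretion, and it was first described in the stroma of breast tumours. Its levels were 6.58 and 6.94 CPM on day 0, 11.5 and 10.1 CPM on day 2, and 14.6 and 14.6 CPM on day 5. No 2 days overlapped. Day 2 was 1.59-fold above day 0 (a change of 0.67 ± 0.12 log2, edgeR adjusted p = 0.00013) and day 5 was 2.16-fold above it (log2 fold change 1.11 ± 0.12, edgeR adjusted p = 4.5e-07). The step from day 2 to day 5 (log2 fold change 0.44 ± 0.12, edgeR adjusted p = 0.0040) did not pass the threshold when day 2 replicate 2 was left out (edgeR adjusted p = 0.0602, range 0.00214 to 0.0602).

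TIMP3 showed the largest change of the 10 genes against day 0. It had 269 and 275 CPM on day 0, 4429 and 4414 CPM on day 2, and 6235 and 6202 CPM on day 5. The replicates of a day differed little beside the distance between days. TIMP3 rose 16.3-fold by day 2 (a change of 4.02 ± 0.02 log2, edgeR adjusted p = 2.3e-26) and was 22.9-fold above day 0 on day 5 (log2 fold change 4.52 ± 0.02, edgeR adjusted p = 2.3e-27). Ranked by log2 fold change among 16327 genes, it was number 115 from the top on day 2 and number 258 on day 5. The later step, a rise of 40.6% from day 2 to day 5 (edgeR adjusted p = 3.4e-15), was small beside the first. With library totals and the other settings, apart from glmTreat, the log2 fold change stayed between 3.84 and 4.04 on day 2 and between 4.31 and 4.54 on day 5.

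TIMP1, a soluble inhibitor of most secreted MMPs, had 681 and 712 CPM on day 0, 880 and 884 CPM on day 2, and 980 and 969 CPM on day 5. It rose 1.27-fold by day 2 (a change of 0.34 ± 0.02 log2, edgeR adjusted p = 3.0e-10) and 1.40-fold by day 5 (log2 fold change 0.48 ± 0.02, edgeR adjusted p = 2.0e-12). The direction of these changes was the same with library totals, where the smallest value was 0.16 on day 2. TIMP1 thus moved far less than TIMP3: their log2 ratio per kilobase, TIMP3 over TIMP1, was -3.92 and -3.95 on day 0, -0.25 and -0.26 on day 2, and 0.09 and 0.10 on day 5.

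TIMP2, which both inhibits MMPs and takes part in the activation of pro-MMP2, had 1132 and 1139 CPM on day 0, 987 and 994 CPM on day 2, and 1216 and 1236 CPM on day 5. It fell by 12.8% on day 2 (edgeR adjusted p = 3.1e-08) and was 1.24-fold higher on day 5 than on day 2 (edgeR adjusted p = 8.9e-11). Against day 0, day 5 was higher, by 0.11 ± 0.02 log2 with TMM scaling (edgeR adjusted p = 3.2e-05), but lower with library totals (log2 fold change -0.10, edgeR adjusted p = 0.000158, range over settings 2.7e-06 to 0.00743). No direction can therefore be given for TIMP2 between day 0 and day 5.

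TIMP4, which is best known from heart and vessels, was the least abundant TIMP, with 53 and 53.9 expected counts on day 0, 45 and 65 on day 2, and 16 and 18 on day 5. In CPM it had 2.09 and 1.85, then 1.87 and 2.42, then 0.959 and 0.982. Days 0 and 2 overlapped (log2 fold change 0.13 ± 0.29, edgeR adjusted p = 0.72), and both day 5 libraries were lower than all others. Day 5 was 2.02-fold under day 0 (a change of -1.02 ± 0.34 log2, edgeR adjusted p = 0.013) and 2.21-fold under day 2 (log2 fold change -1.14 ± 0.33, edgeR adjusted p = 0.0065). The first call depended on day 0 replicate 1, without which it was lost (edgeR adjusted p = 0.0547, range 0.00388 to 0.0547) and the second in the same way on day 2 replicate 2 (0.0600, range 0.00187 to 0.0600). Without day 0 replicate 1 both the TIMP4 and the MMP1 call on day 5 were lost, so that 1 of the 10 genes, MMP3, was called lower than on day 0.

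Levels of different genes were compared per kilobase of the gene length in the deposited table. On day 0 TIMP1 was highest at 906 ± 27.7 CPM per kilobase (SD, n = 2), followed by MMP2 at 384 ± 8.32, TIMP2 at 311 ± 1.41, MMP1 at 210 ± 2.31, MMP14 at 173 ± 1.92, MMP3 at 78.7 ± 0.808 and TIMP3 at 59.1 ± 0.993. MMP11, TIMP4 and MMP10 followed at 2.99, 1.65 and 0.818 CPM per kilobase. Every neighbour in this order was apart in both libraries. By day 2 TIMP3 had moved from seventh to second place, at 962 ± 2.36 behind TIMP1 at 1147 ± 3.82, and MMP1 to the third, at 837 ± 0.810. At that day MMP14 (272 ± 4.32) and TIMP2 (271 ± 1.25) overlapped and have no order. On day 5 TIMP3 was first at 1353 ± 5.01 CPM per kilobase and TIMP1 second at 1267 ± 9.93, while MMP1 was sixth at 202 ± 1.54 and TIMP4 last at 0.813 ± 0.0137. The place of TIMP1 on day 2 rests on its length: with the longest GENCODE transcript (1095 in place of 769 bases) the day 2 order was TIMP3 at 961, MMP1 at 837 and TIMP1 at 806 CPM per kilobase, while TIMP1 stayed first on day 0 and second on day 5.

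Summed per kilobase, the 6 MMP genes stood at 845 and 855 on day 0, 1903 and 1910 on day 2, and 1306 and 1317 CPM per kilobase on day 5. The 4 TIMP genes stood at 1256 and 1298, then 2380 and 2384, then 2964 and 2949 CPM per kilobase. The MMP sum thus peaked on day 2 and the TIMP sum was highest on day 5. The ratio of the TIMP to the MMP sum was 1.503 ± 0.0226 on day 0, 1.25 ± 0.00212 on day 2 and 2.26 ± 0.0219 on day 5 (SD, n = 2). No 2 days overlapped, but with 2 libraries a day an exact permutation test cannot go under p = 0.333 (two-sided), which is the value found in each of the 3 comparisons.

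The makeup of each sum changed as well. TIMP3 held 4.65% and 4.61% of the TIMP sum on day 0, 40.5% and 40.3% on day 2, and 45.8% in both libraries on day 5, while TIMP1 went from 70.5% and 71.3% to 43.0% and 42.7%. These shares rest on the deposited lengths. With GENCODE lengths TIMP1 stood at 636, 806 and 890 CPM per kilobase on the 3 days, and TIMP3 hardly moved. The TIMP3 shares would then be larger and the TIMP1 shares smaller. MMP1 held 25.1% and 24.4% of the MMP sum on day 0, 44.0% and 43.8% on day 2, and 15.5% and 15.2% on day 5. MMP2 held the largest part on day 0 (44.8% and 45.6%) and on day 5 (54.1% and 54.3%). With TIMP3 left out, the ratio of the TIMP to the MMP sum was 1.42 and 1.45 on day 0, 0.744 and 0.745 on day 2, and 1.23 and 1.21 on day 5, so its order over the days depended on TIMP3: day 5 was above day 0 with it and under day 0 without it.

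**Figure D3:**
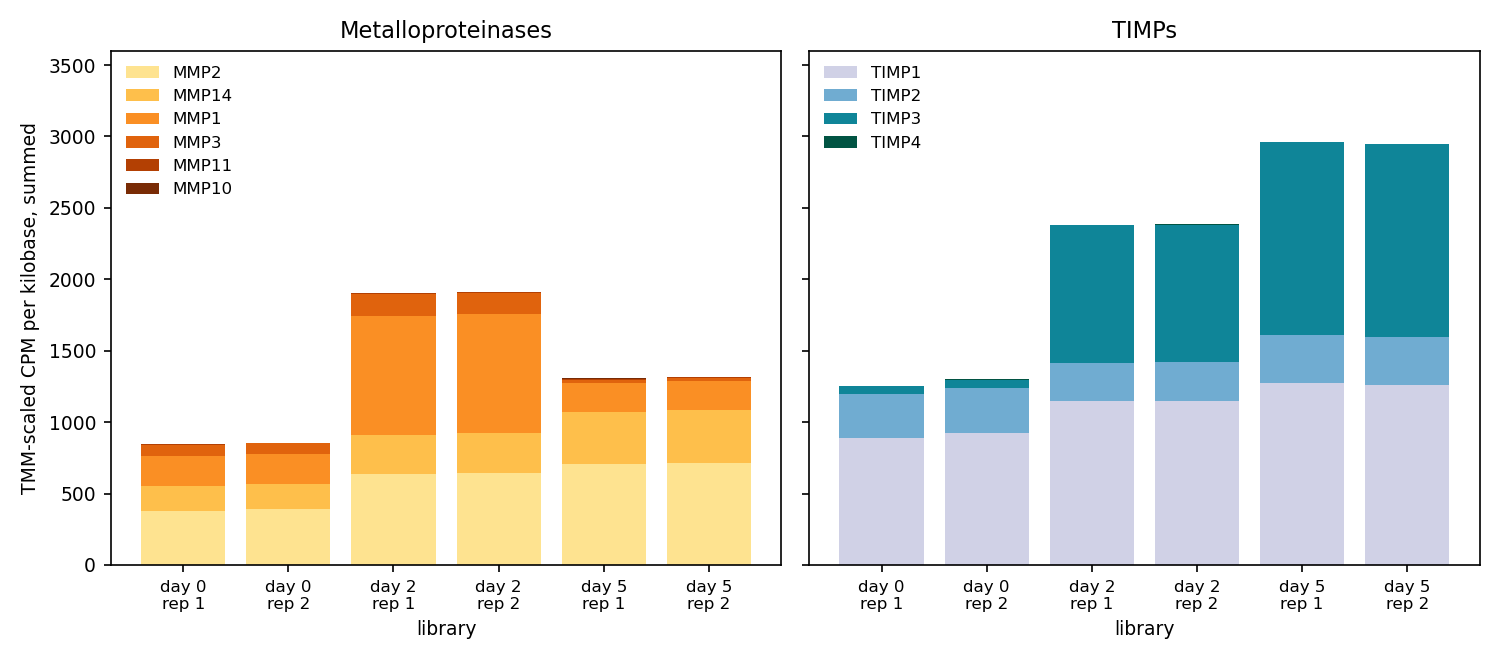
Levels of the 6 MMP genes (left) and the 4 TIMP genes (right) in each library, stacked as TMM-scaled CPM per kilobase of deposited gene length on a shared axis that starts at 0. The MMP1 block is tallest in the day 2 libraries, and the TIMP3 block, thin on day 0, makes up 45.8% of the TIMP sum on day 5.

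MMP10, MMP1 and MMP3 lie next to each other on the minus strand of chromosome 11 in GRCh38 (GENCODE 29), at 102770503 to 102780628, 102789920 to 102798160 and 102835801 to 102843803. They are part of a cluster of 9 MMP genes, in the order MMP7, MMP20, MMP27, MMP8, MMP10, MMP1, MMP3, MMP12 and MMP13. MMP10 and MMP1 are 9291 bases apart, and MMP1 and MMP3 are 37640 bases apart. These neighbours differed widely in level and course: MMP10, between the nearly silent MMP8 and the abundant MMP1, stayed at 1.34 to 2.95 CPM in all libraries, while MMP1 went up and down. MMP12, the macrophage elastase on the other side of MMP3, had 16 and 23 counts on day 0, then 8 and 6 on day 2, and no counts on day 5 in either library. It was called lower on day 5 (edgeR adjusted p = 0.00034), at least 8.35-fold taking 3 counts in the pair of day 5 libraries as the floor. MMP20 and MMP27 had no counts in any library, and MMP7, MMP8 and MMP13 had 0 to 9 counts a library and were not tested.

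**Figure D4:**
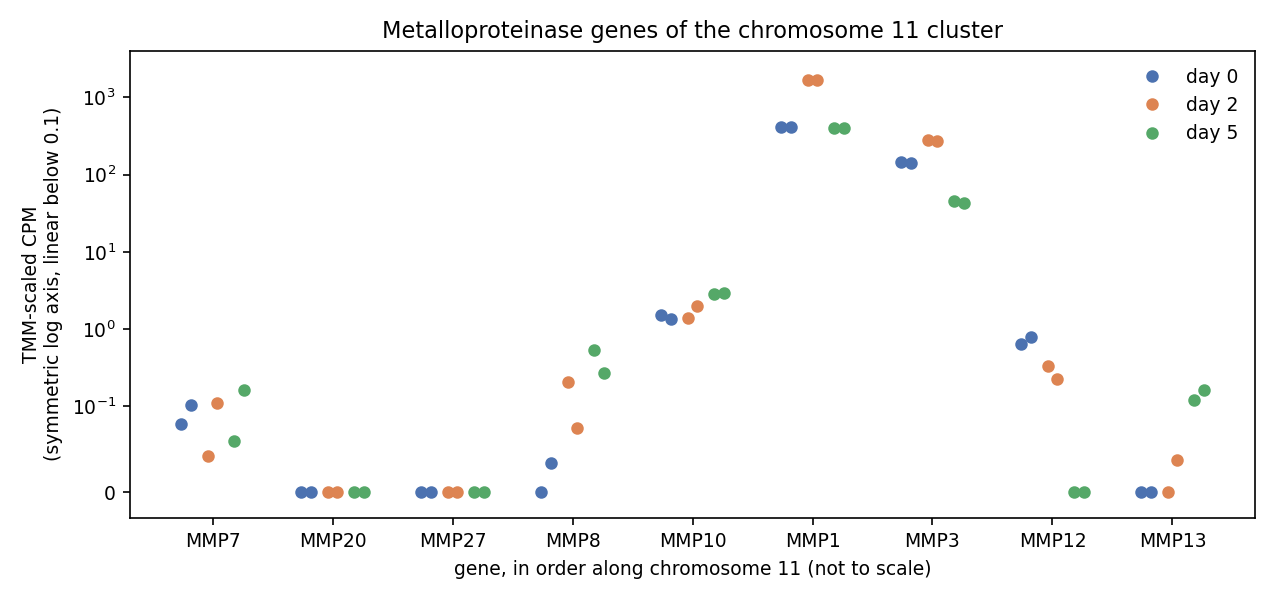
TMM-scaled CPM of the 9 MMP genes of the chromosome 11 cluster in gene order, on a symmetric log axis that is linear below 0.1; each point is 1 library, coloured by day. MMP1 and MMP3 stand out, with day 2 highest, and MMP10 between MMP8 and MMP1 stays at 1.34 to 2.95 CPM.

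The other 7 genes lie on other chromosomes: MMP14 on chromosome 14 at 22836557 to 22849027, MMP2 on chromosome 16 at 55389700 to 55506691, TIMP2 on chromosome 17 at 78852977 to 78925387, and MMP11 on chromosome 22 at 23768226 to 23784316. The remaining TIMP genes lie within synapsin genes, on the opposite strand: TIMP1 in SYN1 (X, 47582313 to 47586789), TIMP3 in SYN3 (chromosome 22, 32801701 to 32863043) and TIMP4 in SYN2 (chromosome 3, 12153051 to 12159351). Synapsins are vesicle proteins of nerve terminals. The strand setting of the counting was not given in the sources used here, so reads of such pairs cannot be told apart where exons overlap. The exons of TIMP1 and of TIMP3 shared 0 bases with those of their hosts, and those of TIMP4 shared 170 of 1650 bases with SYN2. The hosts had few counts: SYN3 was at 0.0394 to 0.436 CPM, SYN2 at 0 to 0.149 CPM and SYN1 at 1.53 to 3.16 CPM. SYN3 thus stood under 0.5 CPM in the libraries in which TIMP3 stood at 4414 to 6235 CPM. All 10 genes are annotated as protein coding. Their identifiers in the deposited table are ENSG00000196611 (MMP1), ENSG00000087245 (MMP2), ENSG00000149968 (MMP3), ENSG00000166670 (MMP10), ENSG00000099953 (MMP11), ENSG00000157227 (MMP14), ENSG00000102265 (TIMP1), ENSG00000035862 (TIMP2), ENSG00000100234 (TIMP3) and ENSG00000157150 (TIMP4).

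How multiply mapped reads were shared was not stated, so shared sequence was measured. Of the windows of 50 bases in the longest transcript of MMP3, 3.0% also occurred in transcripts of MMP10, and 3.45% of those of MMP10 in MMP3. The longest transcripts of MMP11, MMP14, TIMP1 and TIMP3 shared no window with another gene. Over all annotated exons, however, MMP11 shared 218 of 5176 bases with CHCHD10 on the opposite strand. CHCHD10 stood at 6.95 to 11.4 CPM, a level like that of MMP11, and reads from the shared bases cannot be told apart. TIMP2 shared 13.0% of its windows, with the antisense gene AC022966.1 and with CEP295NL, which stood at 4.77 to 9.17 CPM and 0.109 to 0.375 CPM.

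Of the 17 other MMP genes, fixed as a list with the 10 genes, 8 had enough counts to be tested and all were of low level, with MMP19 highest at 41.7 CPM on day 5. On day 2, 2 rose (MMP17 and MMP28) and 2 fell (MMP16 and MMP19), with a median log2 fold change of -0.44 against 0.00 over all genes, of which 33.4% were called in each direction. On day 5 against day 0, 3 were higher (MMP17, MMP19 and MMP23B) and 4 lower (MMP12, MMP15, MMP16 and MMP24), with 35.8% and 34.1% of all genes called and a median of 0.09, which was the same with MMP12 at its bound. MMP17, a membrane-type MMP, went from 1.66 to 2.72 and 6.66 CPM, MMP19 from 28.04 to 17.7 and 41.7 CPM, and MMP23B from 6.42 to 7.65 and 14.2 CPM. MMP28 had 0.607, 2.65 and 1.18 CPM. Of those called lower, MMP15 went from 14.6 to 12.6 and 11.1 CPM, MMP16 from 5.37 to 2.71 and 3.61 CPM, and MMP24 from 1.31 to 0.763 and 0.480 CPM. MMP9, the second gelatinase, had 1 count in all libraries together and was not tested.

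Plasmin is formed from plasminogen by the activators PLAT and PLAU and is held back by inhibitors such as SERPINE2. Of 10 listed genes of proenzyme activation 8 were tested, and 4 rose and 4 fell on day 2, 5 rose and 3 fell on day 5 against day 0, with medians of -0.04 and 0.32. Over all genes 33.4% were called in each direction on day 2, and 35.8% higher and 34.1% lower on day 5 against day 0, with medians of 0.00 and 0.04. PLAT, tissue plasminogen activator, rose from 531 ± 0.128 to 1847 ± 5.62 and 3057 ± 18.6 CPM (SD, n = 2). PLAU, urokinase, went up from 1306 to 1905 CPM on day 2 and down to 637 CPM on day 5, the same order of days as MMP3. SERPINE2 went from 212 to 181 and 336 CPM. FURIN, picked after its values were seen, had 144, 114 and 155 CPM.

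Among 12 genes for other inhibitors, inducers and clearance of MMPs, 8 were tested. On day 2, 6 rose and 2 fell, and on day 5 against day 0, 5 were higher and 3 lower, with medians of 0.97 and 0.50. On day 5 against day 2, 2 were higher and 6 lower, with a median of -0.70. Of all genes, 33.4% were called in each direction on day 2. The shares higher and lower were 35.8% and 34.1% on day 5 against day 0, and 32.1% and 33.7% against day 2. The medians of all genes were 0.00, 0.04 and 0.01. RECK, a membrane-anchored inhibitor of MMPs, went from 80.4 ± 2.30 to 150 ± 3.38 and then 50.1 ± 0.956 CPM, a rise of 0.90 log2 by day 2 (edgeR adjusted p = 2.8e-12) and a fall of 2.99-fold to day 5 (edgeR adjusted p = 5.4e-15). BSG, which induces MMPs in neighbouring fibroblasts, went from 563 to 706 and 757 CPM. LRP1, an endocytic receptor that clears MMP and TIMP complexes, went from 2243 to 1854 and 3348 CPM. A2M, a broad protease inhibitor of plasma picked after its values were seen, rose from 42.8 ± 0.458 to 829 ± 2.01 CPM on day 2 and was at 610 ± 6.92 CPM on day 5 (edgeR adjusted p = 1.5e-23 for day 2 against day 0). THBS1 and TFPI2 are the other genes of this list named by level: THBS1 went from 1565 to 3207 and 242 CPM, and TFPI2 from 190 to 17390 and 11070 CPM.

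TIMP3 inhibits some ADAM and ADAMTS proteases, and the 12 listed genes of these families were all tested. The list was not limited to proteases that TIMP3 inhibits, so its counts and medians are not those of TIMP3 targets alone. On day 2, 7 of 12 rose and 3 fell, with a median log2 fold change of 0.57. On day 5, 3 were higher and 7 lower than on day 0, with a median of -0.40, and 1 was higher and 9 lower than on day 2, with a median of -1.11. Of all genes, 33.4% were called higher and 33.4% lower on day 2, 35.8% and 34.1% on day 5 against day 0, and 32.1% and 33.7% on day 5 against day 2, with medians of 0.00, 0.04 and 0.01. ADAM9 went from 368 to 734 and 308 CPM. ADAMTS5, an aggrecanase, rose from 100.4 ± 2.01 to 548 ± 0.506 CPM and stood at 332 ± 1.58 CPM on day 5, and ADAMTS1 went from 1021 to 965 and 463 CPM. ADAMTS4, the other main aggrecanase and picked after its values were seen, rose from 0.327 to 7.73 and 249 CPM and was the gene that rose between day 2 and day 5.

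Of 13 matrix substrates, 6 rose and 6 fell on day 2, and 7 were higher and 6 lower on day 5 than on day 0, with medians of 0.27 and 0.13 against 0.00 and 0.04 over all genes. Of all genes, 33.4% were called in each direction on day 2, and 35.8% higher and 34.1% lower on day 5. The chains of type I collagen, the main substrate of MMP1, parted on day 2: COL1A1 went from 4281 to 1075 and back to 3723 CPM, whereas COL1A2 went from 5049 to 6197 and 14310 CPM. COL1A1 was thus lowest, and MMP1 highest, on the same day, whereas COL1A2 was lowest on day 0. A link between these mRNA levels was not tested. COL3A1, a chain of another fibrillar collagen, went from 2541 to 2385 and 6436 CPM. FN1, fibronectin, stood at 6380, 7683 and 6149 CPM.

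Transcription of MMP1, MMP3 and MMP10 is known to depend on AP-1 and ETS factors and to respond to interleukin-1. Of 15 such factors and NF-kB members, 7 rose and 4 fell on day 2, and 5 were higher and 8 lower on day 5 than on day 0. Their medians were 0.09 and -0.21, against 0.00 and 0.04 over all genes, of which 33.4% were called in each direction on day 2, and 35.8% higher and 34.1% lower on day 5. FOSL1 fell from 81.1 to 9.15 and 7.36 CPM, FOSL2 rose from 56.3 to 172 and 226 CPM, and JUN went from 154 to 141 and 128 CPM. ETS2 went from 201 to 404 and 174 CPM, up on day 2 and down on day 5 as MMP1 and MMP3 were. Whether any of these factors bears on the MMP levels was not tested. Of 11 tested cytokines and growth factors, 9 rose and 0 fell on day 2, and 3 were higher and 7 lower on day 5 than on day 2. The cytokine medians were 1.21 and -0.91, against 0.00 and 0.01 over all genes, with 33.4% of all genes called in each direction in the first comparison and 32.1% higher and 33.7% lower in the second. On day 5 against day 0, 7 of these 11 genes were higher and 3 lower, with a median of 0.30. Over all genes 35.8% were higher and 34.1% lower there, with a median of 0.04. LIF went from 155 to 480 and 986 CPM, TGFB1 from 83.2 to 110 and 182 CPM, and AREG from 14.5 to 269 and 878 CPM. IL1B and IL1A, picked after their values were seen, were highest on the day on which MMP1 and MMP3 were highest: IL1B had 0.258, 314 and 47.8 CPM and IL1A had 0.236, 17.2 and 4.23 CPM over the 3 days. Whether they bear on the MMP levels was not tested.

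**Figure D5:**
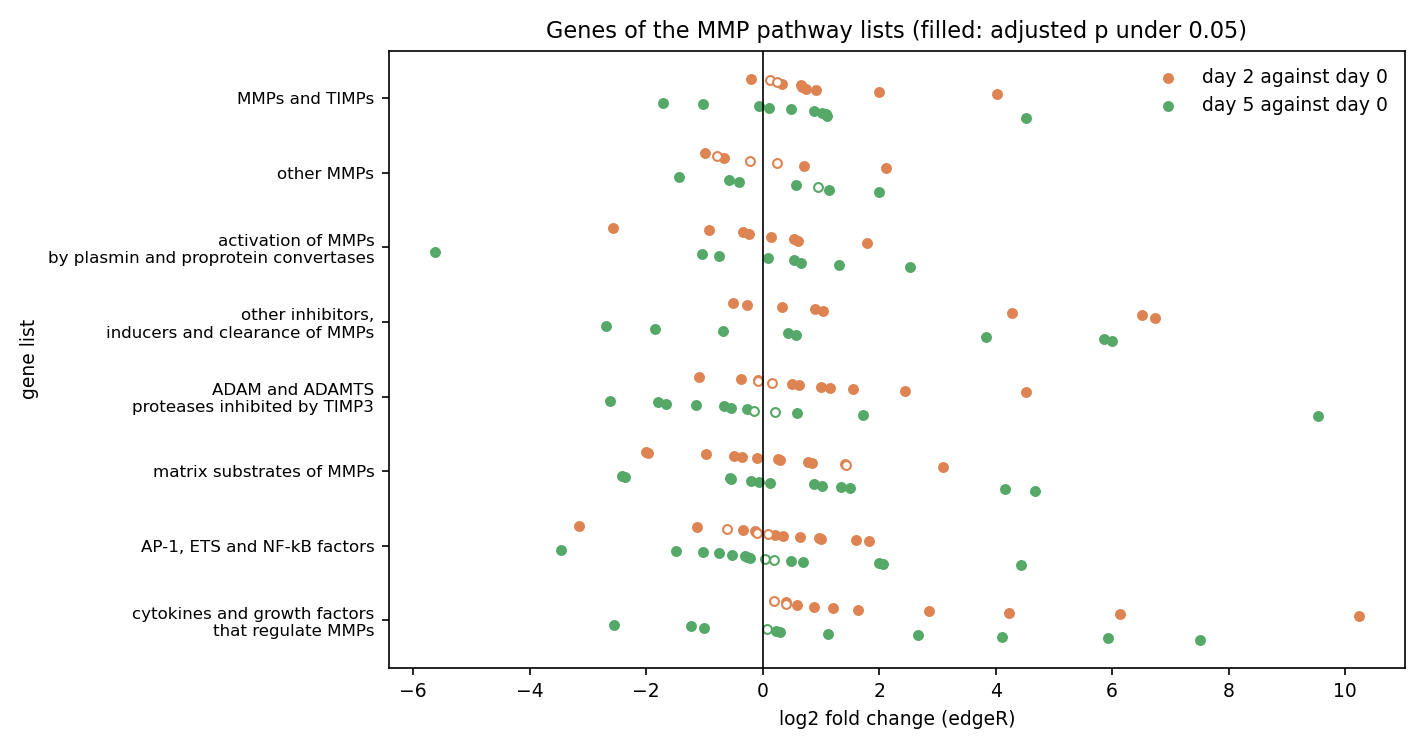
Log2 fold changes (edgeR) of the tested genes of each list, day 2 against day 0 and day 5 against day 0; filled points had an adjusted p under 0.05, and MMP12, with 0 counts on day 5, is left out. Most lists hold genes on both sides of 0, and on day 2 the cytokine list has 9 called genes to the right and 0 to the left.

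Genes with the most similar course were sought for the MMP and the TIMP gene with the widest range of day means, which were MMP3 (2.63 log2) and TIMP3 (4.52 log2). Likeness was the Euclidean distance between log2 levels over the 6 libraries, centred on each gene, among 11051 other genes whose mean level was 5 CPM or more. Nearest to MMP3 were RAB27B (distance 0.175), GNAI1 (0.206) and GPRC5B (0.261). GNAI1, for example, stood at 148, 324 and 49.0 CPM. Nearest to TIMP3 were RGS18 (distance 0.319), TNFAIP6 (0.355) and AC078923.1 (0.381), and TNFAIP6 stood at 1.64, 26.2 and 32.8 CPM. With 3 days there are few courses a gene can take, and these distances are a description.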

How the data were processed

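RNA sequencing of 6 libraries was analysed, 2 each of day 0, 2 and 5, grouped by the labels' titles. Total RNA was extracted with TRIzol and treated with DNase I, and libraries were made with a TruSeq RNA kit, per the labels' protocols. The authors deposited expected counts for each gene (estimates, so not always whole), with no scaling between libraries. GRCh38 is the build in the submitters' processing notes. Not given in the sources used here are aligner, counter, annotation and strand setting. Gene length came from the deposited table. Its 3 columns of day means were not used.

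Of 60843 genes, 172 without a name were left out, which held 0.0356 to 0.0475% of counts. Counts were rounded (87.2% of values were whole already). All libraries entered 1 fit by day in edgeR 4.0.16 under R 4.3.3, using filterByExpr (minimum count 10, minimum total count 15), TMM factors and the quasi-likelihood test (3 residual degrees of freedom, common coefficient of variation 3.33%). P-values are two-sided and adjusted by the Benjamini-Hochberg method over 16327 genes, with calls under 0.05. The standard error is the log2 fold change divided by the square root of F. The steps were tested on simulated data. Alternatives were DESeq2 1.42.0, limma-voom (limma 3.58.1), RLE factors, library totals, leaving out IGFBP5, other filters, 2-group fits, the replicate block, glmTreat at a log2 fold change of 1 and leaving out each library. Counts of the 2 libraries of a day differed by more than sampling noise (chi-square per degree of freedom 2.31 to 2.43). The floor of 3 counts covers counting error only, whereas the standard errors and SDs also hold the spread between these libraries.

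The genes, lists and tests were chosen with earlier results of these data known. All 10 genes were described. From each other list the 3 tested genes of highest mean CPM were named, with RECK, BSG, PLAU, FOSL1, COL1A1 and every tested gene of the list of other MMPs; the 3 genes nearest in course were sought as described. Genes named outside this rule are marked as picked after their values were seen. Coordinates are from GENCODE 29 (10 of 10 matched by identifier).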

Additional observations from a re-analysis of the deposited data

How the results depend on the processing

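Apart from glmTreat, 15 other settings were run for each gene. On day 2 against day 0, 8 of the 10 genes kept direction and call in every one, on day 5 against day 0 it was 6 (not MMP1, MMP10, TIMP2 and TIMP4) and on day 5 against day 2 it was 7 (not MMP10, MMP11 and TIMP4). The direction of an uncalled change on day 2 turned for TIMP4 with library totals (log2 fold change -0.0576) and without day 2 replicate 2 (-0.0727, the lowest on leaving out 1 library, with 0.295 the highest), and for MMP10 without day 2 replicate 2 (-0.064, with 0.4829 the highest), and the called change of TIMP2 on day 5 against day 0 turned with library totals (-0.10). The cause was not tested. Under glmTreat, which asks for more than 2-fold, calls over all genes were 1141 higher and 904 lower on day 2 against day 0, 1591 and 1687 on day 5 against day 0, and 1046 and 1299 on day 5 against day 2, and calls among the 10 genes were 2 and 0, 2 and 1, and 0 higher with 2 lower, fewer by its construction. Without glmTreat and left-out libraries all counts stayed within 1.5 times. Leaving out 1 library gave 1 to 3 of the 10 genes lower on day 5 against day 0; the lone library left on that day is assumed to vary like the other days. With GENCODE transcript lengths, an alternative chosen after seeing the data, the ratio of summed TIMP to MMP levels was 1.23, 1.10 and 2.04 on the 3 days. RefSeq transcript lengths were not run.

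The libraries share replicate numbers, but deviations of same-numbered libraries correlated by only 0.0282 to 0.0488 over 11058 genes, so the numbers were not taken as pairs. With the replicate block 5408 genes were higher and 5398 lower on day 2 against day 0, 5737 and 5560 on day 5 against day 0, and 5156 and 5487 on day 5 against day 2. Among the 10 genes the block ended 1 call, MMP10 on day 5 against day 2. Depth limits MMP10 and TIMP4, which had 16 to 65 counts a library.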
